A study of Mus musculus with 2 samples.

Results

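The 9 interferon-inducible GTPases measured here are 5 guanylate-binding proteins (GBPs), *Gbp2*, *Gbp3*, *Gbp4*, *Gbp5* and *Gbp7*, and 4 immunity-related GTPases (IRGs), *Igtp*, *Irgm1*, *Irgm2* and *Ifi47*. They were taken by gene symbol, and all 9 were found among the 33696 genes of the count tables. Their counts were compared in 2 single-cell libraries of thalamic CD45+ cells, 1 per antibody (control Ab or anti-CD9 Ab), in cell classes defined by marker genes. All mice were C57B6/J and had a cortical ablation injury (CAI), the surgical removal of a part of the cortex. The control Ab was normal rat IgG and the anti-CD9 Ab was clone KMC8, which blocks the tetraspanin CD9. Both were given at 1.0 µg/µl through a cannula in the thalamus from day 7 to day 19 after injury, and cells were collected on day 21. The methods pool 4 mice per thalamus library for mice without antibody, and how many went into each antibody library is not given in the sources used here. Most experiments used female mice, and the age given for the mice of the study is 12 weeks. Each antibody has a single library, so that antibody, pool of mice and library cannot be told apart and no test could be run, and every interval below is a 95% interval that covers counting error only.

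GBPs and IRGs are large cytosolic GTPases that cells make in response to interferons, above all to IFN-γ. GBPs coat pathogen vacuoles and cytosolic bacteria, break them open and feed microbial ligands to inflammasomes. Among the IRGs, the regulatory members *Irgm1*, *Irgm2* and *Igtp* (also called Irgm3) sit on host membranes and hold the effector IRGs, such as *Ifi47* (Irgd), in the inactive state. In the brain these genes are known as part of the response of microglia and infiltrating myeloid cells to T cell-derived IFN-γ.

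The members lie in few places in the genome. In the RefSeq annotation of GRCm38.p6, *Gbp2*, *Gbp3*, *Gbp5* and *Gbp7* are on chromosome 3, *Gbp4* is on chromosome 5, and the 4 IRGs are on chromosome 11. Promoter windows of 300 bases, from 250 bases before to 50 bases after the annotated start, were given for 8 of the 9 members. The windows were searched on both strands for the core of the interferon-stimulated response element (ISRE), written as GAAANNGAAA or, on the other strand, TTTCNNTTTC. This sequence is bound by proteins of the IRF family. It was found in 7 of the 8 members, against 3.99% of the 27025 genes with a window. The matched stretches are shown because they are what members of both families share in sequence, with the ISRE letters in capitals and all other bases in lower case, read 5′ to 3′ on the strand of the gene.
*Gbp2* (chr3:142620592-142620625, + strand): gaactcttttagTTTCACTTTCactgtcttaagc
*Gbp3* (chr3:142559987-142560026, + strand): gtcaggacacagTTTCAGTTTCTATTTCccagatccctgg
*Gbp5* (chr3:142496757-142496790, + strand): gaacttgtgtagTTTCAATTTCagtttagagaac
*Gbp7* (chr3:142530271-142530304, + strand): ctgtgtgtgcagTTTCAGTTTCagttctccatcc
*Igtp* (chr11:58199510-58199543, + strand): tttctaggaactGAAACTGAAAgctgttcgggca
*Irgm1* (chr11:48871423-48871462, − strand): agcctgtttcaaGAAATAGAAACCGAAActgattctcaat
*Irgm2* (chr11:58214901-58214934, + strand): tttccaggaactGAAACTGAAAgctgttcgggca

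In all 4 GBPs shown the match read TTTCNNTTTC along the gene, and in all 3 IRGs it read GAAANNGAAA. The first match began between 30 bases (*Irgm1*) and 64 bases (*Irgm2*) before the start in 6 of the 7 genes, and 165 bases before it in *Gbp5*. *Gbp3* and *Irgm1* each held 2 overlapping matches, and the second of the 2 windows of *Gbp3* held none. The windows of *Igtp* and *Irgm2*, which are neighbours on chromosome 11, were 92.1% identical over 265 aligned bases. The IFN-γ-activated site (GAS), TTCNNNGAA, a promoter element of many genes that respond to IFN-γ, was found in *Gbp5*, *Gbp7*, *Igtp* and *Irgm2*, that is in 4 of the 8 members, against 9.55% of the genes with a window. *Ifi47* held neither sequence in its window. A match says only that these letters are present.

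The count tables held 12245 barcodes for control Ab and 15173 for anti-CD9 Ab, of which 7467 and 9162 passed the study's limits on genes and mitochondrial counts, with medians of 1880 and 1419 unique molecular identifiers (UMIs) per cell. Of the barcodes, 54 occurred in both libraries, 18 of them among cells kept in each. Clustering of the kept cells, from which the members and all other interferon genes of the lists below were left out, gave 24 clusters, and 17 of them took a class name from markers. The make-up of the 2 libraries differed. Of the control Ab cells 24.2% were microglia-like, against 8.74% of the anti-CD9 Ab cells, T cell-like cells were 37.5% and 10.8%, and neutrophil-like cells were 0.871% and 27.7%. Unnamed clusters held 13.7% and 29.2%. Astrocyte-like and oligodendrocyte-like cells were present despite the sort for CD45.

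Levels are given as CPM, the UMIs of a gene per 1000000 UMIs of all cells of a class in a library. The library was read from the 3′ end, with 1 UMI per molecule, so that a CPM does not scale with transcript length. Members were called higher or lower past a 2-fold limit, a log2 ratio of 1 for anti-CD9 Ab over control Ab, where both libraries together held at least 50 UMIs. A gene can meet this minimum through the library where it is high. Over all kept cells, the summed level of the 9 members was 433 CPM with control Ab and 3.91-fold higher, at 1695 CPM, with anti-CD9 Ab. The make-up of the libraries entered this value. With the class levels of anti-CD9 Ab set at the make-up of control Ab, the sum was 1031 CPM, 2.38-fold above control Ab. With the class levels of control Ab set at the make-up of anti-CD9 Ab, the sum was 491 CPM, and anti-CD9 Ab was 3.45-fold above it. With control Ab, T cell-like cells held 44.6% of all member UMIs and neutrophil-like cells 0.601%. With anti-CD9 Ab, T cell-like cells held 7.63% and neutrophil-like cells 43.7%. The members were therefore followed class by class.

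**Figure D1:**
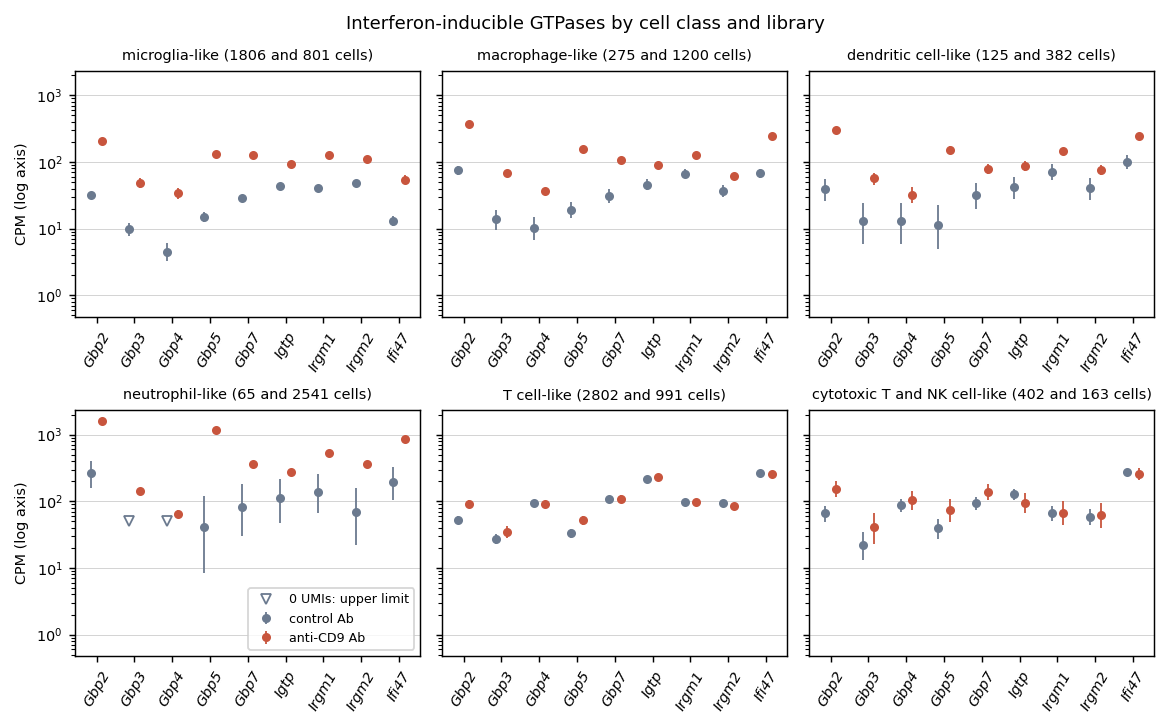
CPM (log axis) of the 9 GTPases in 6 cell classes, with control Ab (grey) and anti-CD9 Ab (red). Points are summed counts of 1 library, bars are 95% Poisson intervals, and open triangles mark the upper limit where a gene had 0 UMIs. All 9 red points lie above the grey ones in the 4 myeloid classes, whereas the points lie close together in T cell-like cells except for *Gbp2* and *Gbp5*.

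In microglia-like cells, all 9 members were more than 2-fold higher with anti-CD9 Ab. Their sum was 236 CPM (226 to 246) in 1806 control Ab cells and 934 CPM (898 to 970) in 801 anti-CD9 Ab cells, and the log2 ratio was 1.99 (1.90 to 2.07). Of the 10884 genes tested in this class, 3.52% were called higher. The median log2 ratio was 2.14 over the members and 0.01 over all genes tested. All 9 intervals of the single members lay above 0.

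The largest ratio belonged to *Gbp5*, a GBP linked to assembly of the NLRP3 inflammasome, at 14.9 CPM (12.5 to 17.6) in the control Ab library and 131 CPM (118 to 145) in the anti-CD9 Ab library, for a log2 ratio of 3.13 (2.85 to 3.42). From here on, the first of a pair of values is that of control Ab and the second that of anti-CD9 Ab, and the log2 ratio follows in parentheses. *Gbp4* was the scarcest member, with 4.50 and 33.8 CPM (2.91, 2.37 to 3.47) from 42 and 96 UMIs. *Gbp2*, which is recruited to parasite vacuoles and to cytosolic bacteria, was the most abundant with anti-CD9 Ab, at 206 CPM after 32.1 CPM with control Ab (2.68, 2.48 to 2.89). The remaining GBPs took the same direction with smaller ratios. *Gbp3* was at 9.76 and 49.0 CPM (2.33, 1.94 to 2.72). *Gbp7*, which has been tied to the phagocyte NADPH oxidase, was at 28.8 and 127 CPM (2.14, 1.91 to 2.37).

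The regulatory IRGs had the 3 smallest ratios of the 9 members in microglia-like cells. *Igtp* was at 43.8 and 93.0 CPM (1.09, 0.86 to 1.31), *Irgm2* at 48.4 and 111 CPM (2.30-fold, log2 interval 0.99 to 1.41) and *Irgm1* at 40.4 and 129 CPM (1.67, 1.46 to 1.88). With control Ab these 3 genes were the highest of the 9. With anti-CD9 Ab they were passed by *Gbp2*, and *Gbp5*, *Irgm1* and *Gbp7* lay within each other's intervals. *Ifi47*, the effector-type IRG, was at 13.1 and 54.2 CPM (2.05, 1.70 to 2.41).

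Both microglia-like clusters showed the difference. Cluster 1 (1032 and 595 cells) went from 219 to 938 CPM in the sum, and cluster 7 (774 and 206 cells), led by damage-associated genes such as *Lpl* and *Cst7*, from 249.5 to 921 CPM. With control Ab, *Gbp2* was at 17.5 CPM in cluster 1 and at 43.8 CPM in cluster 7. With anti-CD9 Ab it was at 191 and 245 CPM. The class itself differed between the libraries. Microglia markers summed to 13960 and 8992 CPM (9 of 9 lower) and damage-associated genes to 48510 and 21520 CPM (10 of 10 lower). Predicted doublets were 1.77% and 9.61% of its cells, and the part of these differences in the result was not tested. Neutrophil markers were higher in microglia-like cells of the anti-CD9 Ab library, at 518 and 1212 CPM in sum, with 11 of 11 markers higher. If all of these marker UMIs had come with RNA of neutrophil-like cells of the anti-CD9 Ab library, they would have brought 62.3 and 146 CPM of the 9 members, and the log2 ratio without that amount was 2.18. The same profile was taken for both libraries, although neutrophil-like cells held 896 CPM of the members with control Ab and 5343 CPM with anti-CD9 Ab. The ratio of 2.18 therefore cannot show how carry-over changed the difference.

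Macrophage-like cells (275 and 1200) had a summed level of 366.5 CPM (343 to 391) and 1267 CPM (1240 to 1294), a log2 ratio of 1.79 (1.69 to 1.89). Of the 9 members, 7 were at least 2-fold higher, where 7.03% of the 9583 genes tested were called higher, and the median was 1.83 against −0.12 over all genes. The order of the ratios was headed by GBPs. *Gbp5* was at 19.3 and 157 CPM (3.02, 2.61 to 3.47), *Gbp3* at 13.8 and 69.4 CPM (2.33, 1.84 to 2.87) and *Gbp2* at 74.8 and 370 CPM (2.31, 2.09 to 2.53). The 2 members under the limit were regulatory IRGs. These were *Irgm1* at 66.5 and 128 CPM (0.94, 0.70 to 1.19) and *Irgm2* at 37.0 and 62.6 CPM (0.76, 0.43 to 1.10), and *Igtp* lay at the limit with 45.7 and 91.4 CPM (1.00, 0.71 to 1.30). *Ifi47* stood apart from the other IRGs, with 68.1 and 245 CPM (1.85, 1.62 to 2.08).

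The size of the difference in macrophage-like cells depended on which cells were counted in the class. At a clustering resolution of 1.2 the class held 244 and 545 cells, the sum was 333 and 633 CPM (log2 ratio 0.92), and 5 of the 9 members were called. The share of all genes called was not worked out for this set of cells. With a gate on markers in each cell (50 and 611 cells) the log2 ratio was 1.14. Microglia markers summed to 6383 and 896.5 CPM in this class, and monocyte markers to 832 and 4563 CPM. Damage-associated genes summed to 93150 and 20220 CPM (10 of 10 lower). Predicted doublets were 20.7% and 12.2% of its cells. The part of these differences in the result was not tested.

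Dendritic cell-like cells were few with control Ab (125 cells, against 382) and again had their largest ratio in *Gbp5*, here followed by *Gbp2*. They came from clusters 15 (107 and 220 cells) and 19 (18 and 162 cells), whose own log2 ratios of the sum were 1.56 (1.35 to 1.77) and 1.99 (1.39 to 2.65). The sum was 362 CPM (319 to 410) and 1173 CPM (1121 to 1226), a log2 ratio of 1.70 (1.51 to 1.89). Here 8 of 9 members were called higher, where 6.96% of all genes tested were, and the median was 1.32 against −0.03 over all genes. Only *Irgm1* (50 UMIs) and *Ifi47* (70 UMIs) reached the minimum of 50 UMIs with control Ab alone, and the others needed the anti-CD9 Ab library. *Gbp5* had 8 and 253 UMIs, 11.5 and 152 CPM (3.73, 2.73 to 4.96). *Gbp2* was at 38.8 and 300.0 CPM (2.95, 2.39 to 3.57). The IRGs were closer to the limit, with *Ifi47* at 101 and 244.5 CPM (1.28), *Igtp* at 1.08, *Irgm1* at 1.00 and *Irgm2* at 0.91 on the log2 scale. Markers of other cell types differed in this class too: T cell markers summed to 1489 and 307 CPM, with 12 of 12 lower, microglia markers to 1061 and 478 CPM and macrophage markers to 933 and 2314 CPM, and their part in the result was not tested.

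The highest levels of all classes were those of neutrophil-like cells with anti-CD9 Ab. The sum was 5343 CPM (5262 to 5424) over 2541 cells, beside 1267 CPM in macrophage-like cells of the same library. The 65 cells with control Ab held only 65 member UMIs in all, or 896 CPM (691 to 1141). The log2 ratio of the sum was 2.58 (2.23 to 2.95), with 8 of 9 members past the limit, where 13.3% of all genes tested were called higher. The median was 2.13 against −0.15 over all genes, with 2 members set against the floor given below. Neutrophil markers themselves summed to 87990 and 44450 CPM in this class, with 5 of 11 higher and 6 lower. Microglia markers summed to 1901 and 402 CPM and macrophage markers to 6765 and 1405 CPM. The part of these differences in the result was not tested.

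With anti-CD9 Ab, *Gbp2* was at 1597 CPM in neutrophil-like cells, *Gbp5* at 1165 CPM and *Ifi47* at 847 CPM. *Irgm1* followed with 526 CPM, *Gbp7* and *Irgm2* could not be separated at 362.5 and 362 CPM, and *Igtp* was at 276 CPM. *Gbp3* (143 CPM) and *Gbp4* (64.6 CPM) were the lowest, as in microglia-like cells. *Gbp5* rested on 3 UMIs with control Ab, a log2 ratio of 4.82 with an interval from 3.27 to 7.10. *Gbp3* and *Gbp4* had 0 UMIs with control Ab, where a floor of 3 UMIs corresponds to 41.3 CPM. Against this floor *Gbp3* was 3.45-fold and *Gbp4* 1.56-fold higher with anti-CD9 Ab. The lower limits of their log2 ratios were 1.48 and 0.33.

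The neutrophil-like cells fell into 2 clusters in which the members differed. Cluster 4 (14 and 1373 cells) was led by *Cxcl2*, *Rsad2* and *Cxcl10*, and cluster 6 (51 and 1168 cells) by *Retnlg* and *S100a8*. With anti-CD9 Ab, the sum was 7302 CPM (7179 to 7426) in cluster 4 and 2515 CPM (2429 to 2603) in cluster 6. *Gbp5* was at 1704 and 387 CPM, *Gbp2* at 2221 and 696 CPM and *Ifi47* at 1204 and 331 CPM in clusters 4 and 6. *Irgm2* differed least between them, with 399 and 309 CPM. Most of the control Ab cells of the class lay in cluster 6 and most of the anti-CD9 Ab cells in cluster 4. Within cluster 6 the sum was 655 CPM (466 to 896) with control Ab, and its log2 ratio 1.94 (1.49 to 2.44).

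T cell-like cells carried the members at a high level in both libraries, and the sum differed little. It was 992 CPM (964 to 1020) in 2802 control Ab cells and 1051 CPM (1013 to 1090) in 991 anti-CD9 Ab cells, and the log2 ratio was 0.08 (0.02 to 0.15). None of the 9 members passed 2-fold, where 3.28% of the 9732 genes tested were called higher, and the median of 0.04 lay near that of all genes (−0.09). *Ifi47* was the highest member, at 268 CPM (254 to 283) and 261 CPM (242 to 280), followed by *Igtp* at 215 and 232 CPM. Their log2 ratios were −0.04 (−0.17 to 0.09) and 0.11 (−0.04 to 0.25).

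The members of T cell-like cells whose intervals lay above 0 were *Gbp2* and *Gbp5*. *Gbp2* was at 52.3 and 91.1 CPM (0.80, 0.54 to 1.06) and *Gbp5* at 33.4 and 51.6 CPM (0.63, 0.30 to 0.96). The 7 other intervals held 0. They ranged from −0.19 (−0.42 to 0.04) for *Irgm2* to 0.35 (−0.04 to 0.74) for *Gbp3*, so that a doubling lay outside each of them. By cluster, the *Gbp2* difference was largest in cluster 2, with 54.9 and 145 CPM (1130 and 423 cells), and smaller in cluster 0, with 43.7 and 52.2 CPM (1350 and 344 cells). The highest sums of T cell-like cells were those of cluster 12, led by *Foxp3*, with 1499 and 1620 CPM from 279 and 120 cells. In the cycling T cell-like cluster 20 (43 and 104 cells) the sum was lower with anti-CD9 Ab, at 904.5 and 755 CPM (−0.26, −0.51 to −0.01). The log2 ratio of the sum was 0.14 (0.02 to 0.25) in cluster 0, 0.27 (0.16 to 0.38) in cluster 2 and 0.11 (−0.06 to 0.28) in cluster 12. The class mixes these clusters in unlike parts in the 2 libraries. Cycling markers summed to 312 and 1320 CPM (8 of 8 higher) and T cell markers to 10050 and 8251 CPM (10 of 12 lower). The part of these differences in the result was not tested.

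*Ifng*, which encodes IFN-γ, was itself measured in T cell-like cells at 84.7 and 163 CPM (0.95, 0.75 to 1.14). In cluster 0, led by γδ T cell genes such as *Trdc* and *Il17a*, it was at 26.0 and 161 CPM, in cluster 2 at 124 and 150 CPM, in cluster 12 at 168 and 416 CPM and in the cycling cluster 20 at 108 and 79.0 CPM (−0.45, −1.19 to 0.33). T cell-like cells themselves were a smaller part of the anti-CD9 Ab library, as given above. The *Ifng* level per cell class says nothing of how much of the protein was made.

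Cytotoxic T and NK cell-like cells (402 and 163 cells) had a ratio of the sum nearer to that of T cell-like cells than to those of the myeloid classes. The sum was 832 CPM (773 to 895) and 993 CPM (894 to 1100), a log2 ratio of 0.26 (0.07 to 0.44). Of 8 members with enough UMIs, *Gbp2* alone was called, at 65.7 and 155 CPM (1.24, 0.68 to 1.79), where 3.52% of all genes tested were called higher. *Gbp5* was at 39.2 and 73.3 CPM (0.90, 0.12 to 1.68) and *Gbp7* at 93.4 and 138 CPM (0.57, 0.03 to 1.09). The 4 IRGs had intervals that held 0, and *Igtp* had the lowest ratio, with 128 and 94.99 CPM (−0.43, −1.02 to 0.13). *Ifng* was at 79.5 and 144 CPM in this class (0.85, 0.31 to 1.39). The class itself differed between the libraries: NK cell markers summed to 3708 and 6413 CPM (8 of 8 higher), T cell markers to 9842 and 6253 CPM (11 of 12 lower) and neutrophil markers to 26.5 and 448 CPM, and their part in these values was not tested.

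**Figure D2:**
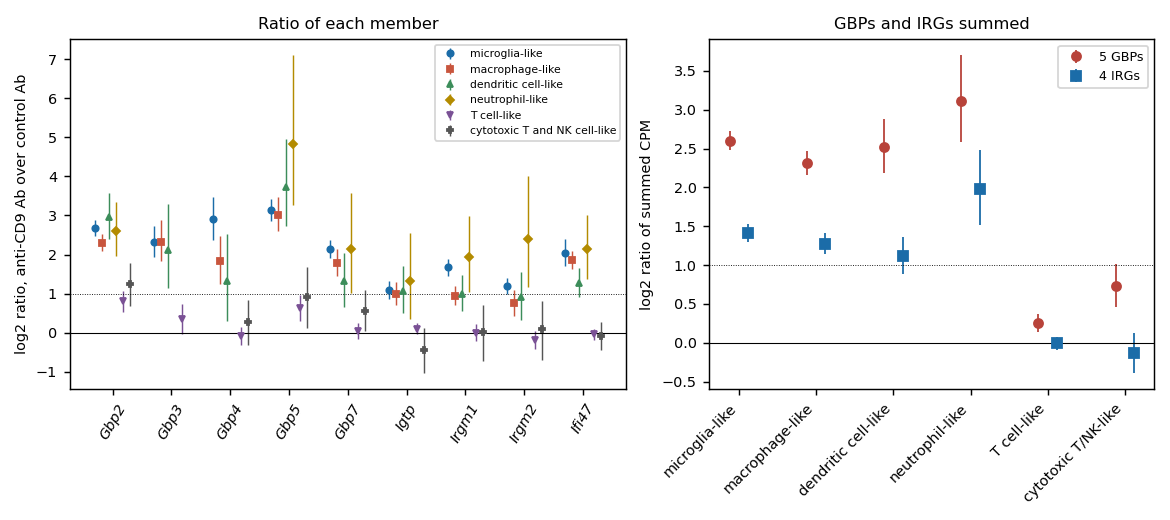
Log2 ratio of anti-CD9 Ab over control Ab for each member with at least 50 UMIs (left) and for the summed GBPs and summed IRGs (right), with 95% counting intervals. The solid line marks no difference and the dotted line 2-fold, members at 0 UMIs in one library are left out on the left, and in each class the GBP point lies above the IRG point.

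Set side by side, the summed GBPs had a larger ratio than the summed IRGs in each of these 6 classes. In microglia-like cells the 5 GBPs together were 6.06-fold higher (log2 ratio 2.60, 2.48 to 2.72) and the 4 IRGs 2.66-fold higher (1.41, 1.30 to 1.53). In macrophage-like cells the values were 4.96-fold and 2.42-fold, in dendritic cell-like cells 5.75-fold and 2.17-fold, and in neutrophil-like cells 8.64-fold and 3.94-fold. In these 4 classes the intervals of the 2 sums did not overlap. The neutrophil-like class mixes clusters 4 and 6 in unlike parts in the 2 libraries. Their own log2 ratios of the sum of all members, 1.875 and 1.94, lay below the 2.58 of the class. In cluster 6, from 39 UMIs with control Ab, GBPs made up 48.7% and 56.3% of the member UMIs. In cluster 4, from 26 such UMIs, they made up 34.6% and 63.8%. The part of this mixing in the neutrophil-like values was not tested. The order holds for the sums, and the point values of single genes did not all follow it. In neutrophil-like cells *Irgm2* was 5.25-fold and *Ifi47* 4.39-fold higher, beside 4.38-fold for *Gbp7*, from 5, 14 and 6 UMIs with control Ab. In macrophage-like cells *Ifi47* was 3.60-fold higher, beside 3.56-fold for *Gbp4* and 3.45-fold for *Gbp7*. In both classes the intervals of these genes overlapped, so they cannot be ranked. In T cell-like cells the GBPs gave a log2 ratio of 0.26 (0.14 to 0.37) and the IRGs −0.01 (−0.09 to 0.08), and in cytotoxic T and NK cell-like cells 0.74 (0.46 to 1.01) and −0.13 (−0.39 to 0.13).

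The share of GBPs among the member UMIs moved accordingly. In microglia-like cells it was 38.2% (36.2 to 40.3%) and 58.5% (56.6 to 60.4%), in macrophage-like cells 40.7% and 58.4%, and in dendritic cell-like cells 29.8% and 52.9%. The 2 dendritic cell-like clusters differed in this share, with 26.2% and 47.2% in cluster 15 and, from 23 and 715 UMIs, 65.2% and 62.8% in cluster 19. In T cell-like cells, 31.8% (30.5 to 33.1%) and 35.9% (34.1 to 37.6%) of the member UMIs were those of GBPs. With anti-CD9 Ab, the share in neutrophil-like cells, 62.4% (61.6 to 63.1%), was the highest of the classes, whereas with control Ab it was 43.1% (30.8 to 56.0%), an interval that holds an equal split. IRGs made up most of the member UMIs in T cell-like cells in both libraries, and in microglia-like, macrophage-like and dendritic cell-like cells as whole classes only with control Ab.

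**Figure D3:**
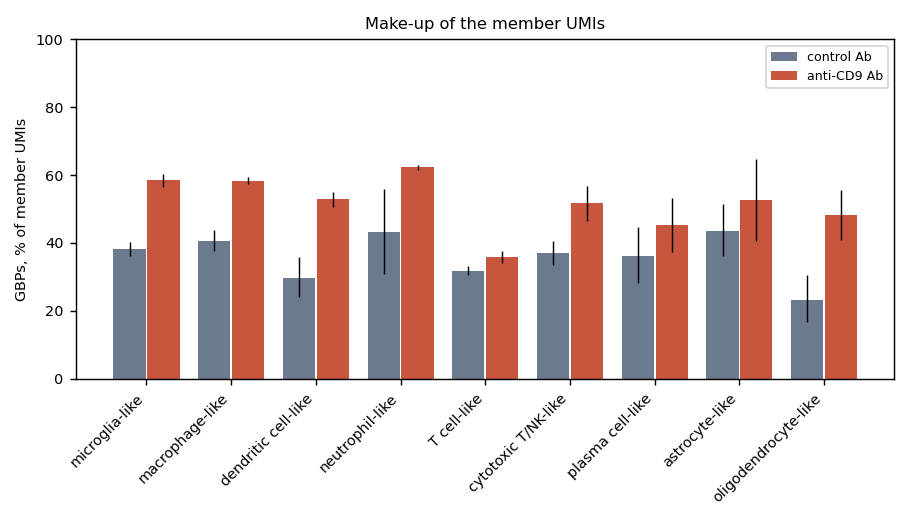
Share of the 5 GBPs among the UMIs of the 9 members (percent) in 9 cell classes, with control Ab (grey) and anti-CD9 Ab (red), with 95% Clopper-Pearson intervals. The microglia-like bars are at 38.2% and 58.5%, and the T cell-like bars at 31.8% and 35.9%.

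The other classes held too few member UMIs for a call on each gene. Oligodendrocyte-like cells (301 and 96 cells) had a sum of 276 and 1652 CPM (2.58, 2.27 to 2.90), and *Gbp2* had 4 and 43 UMIs there (7.25 and 384 CPM). Astrocyte-like cells (429 and 78 cells) had 221 and 748 CPM (1.76, 1.34 to 2.17). Neutrophil markers moved with both results: they summed to 180 and 5152 CPM in oligodendrocyte-like cells and to 101 and 1734 CPM in astrocyte-like cells, where the same reckoning of neutrophil RNA as above gave 619 CPM and 208 CPM of the members with anti-CD9 Ab. Plasma cell-like cells had the lowest sum of the classes, 99.6 CPM (83.9 to 118) and 132 CPM (112 to 154), and there the reckoning gave 2.72 and 37.2 CPM, so that without it the sum was 96.9 and 94.8 CPM. B cell-like cells had 435 and 896 CPM, from 29 and 97 cells, and there the reckoning gave 201 and 327 CPM. Predicted doublets were 34.5% and 27.8% of the B cell-like cells.

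**Figure D4:**
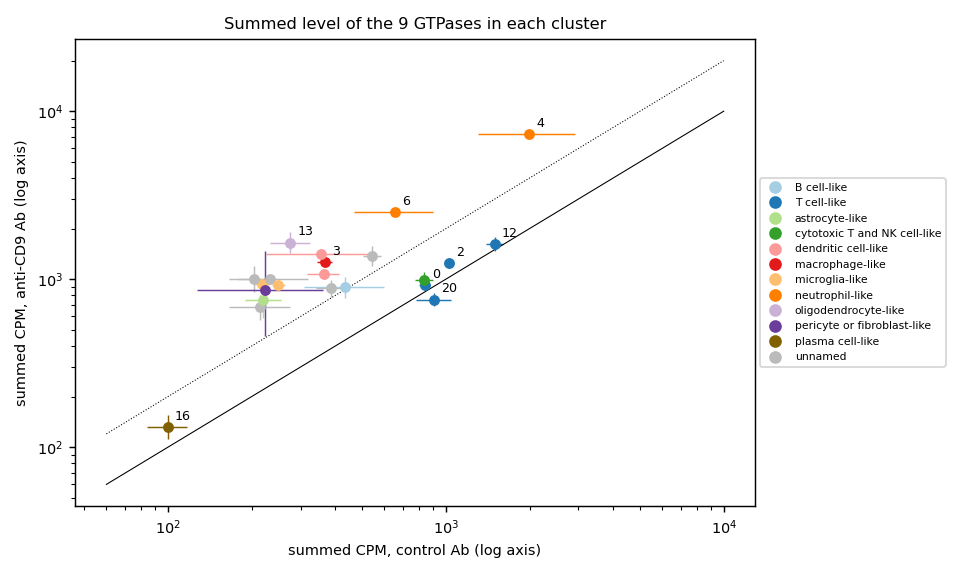
Summed CPM of the 9 GTPases in each cluster with at least 14 cells per library, control Ab (x, log axis) against anti-CD9 Ab (y, log axis), with 95% Poisson intervals. Numbers name clusters, the solid line marks equal levels and the dotted line 2-fold, and the T cell-like clusters 0, 2, 12 and 20 lie near the solid line while clusters 4 and 6 lie above the dotted one.

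Detection was compared after each cell was thinned to 1000 UMIs, because cell classes differed in depth. At least 1 member had a UMI in 17.7% (15.9 to 19.5%) of 1771 microglia-like cells of the control Ab library and in 50.8% (47.3 to 54.4%) of 783 of the anti-CD9 Ab library. The shares were 27.5% and 55.6% in macrophage-like cells, 28.5% and 57.9% in dendritic cell-like cells, and 54.7% and 60.1% in T cell-like cells. Without thinning they were 47.4% and 80.4% in microglia-like cells at medians of 3098 and 3378 UMIs, and 65.6% and 80.3% in T cell-like cells at 1552 and 2288 UMIs. Plasma cell-like cells, the class with the lowest level, had 8.39% and 8.70% of thinned cells (42.1% and 56.2% unthinned). These shares are no upper limit of the background in other classes, because the reckoning of neutrophil RNA with anti-CD9 Ab was 37.2 CPM in plasma cell-like and 146 CPM in microglia-like cells. They also rest on which cells were counted, since at the limit of 5% mitochondrial counts the plasma cell-like sum with anti-CD9 Ab was 417 CPM in 671 cells. Thinning left out 35 and 18 microglia-like cells, and 341 and 73 T cell-like cells.

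Several members in 1 cell were seen above all in neutrophil-like cells with anti-CD9 Ab. There 81.4% of 1725 thinned cells had a member UMI and 52.7% (50.3 to 55.1%) had UMIs of 3 or more members, and 816 shallower cells were left out. Only 22 control Ab cells of this class reached 1000 UMIs, and 3 of them (13.6%, 2.91 to 34.9%) had a member UMI. Cells with 3 or more members were 0.282% and 6.64% in microglia-like cells, 2.20% and 13.04% in macrophage-like cells, and 6.99% and 9.69% in T cell-like cells. In cytotoxic T and NK cell-like cells the share with any member was 53.7% and 49.3%, and the intervals overlapped.

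**Figure D5:**
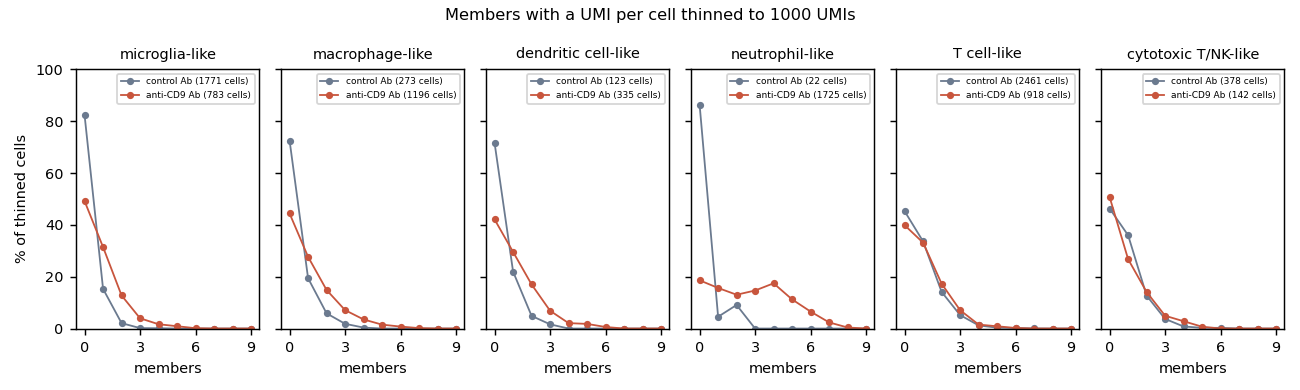
Number of the 9 members with a UMI in each cell (x) against the percent of cells (y), after thinning to 1000 UMIs, with control Ab (grey) and anti-CD9 Ab (red); the number of cells stands in each legend. With anti-CD9 Ab, 52.7% of neutrophil-like cells had UMIs of 3 or more members, and the 2 lines run close together in T cell-like cells.

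The other GTPases of these families were read from a list of 17 genes, 16 of which were in the tables. In microglia-like cells 11 of 12 tested were higher, with *Iigp1*, an effector IRG, at 72.1 and 521 CPM (2.86, 2.72 to 2.99) and *Tgtp2* at 3.11 and 17.9 CPM (2.53) at the top and *Gm12185* at 36.2 and 68.3 CPM (0.91) below the limit. The list had a median of 1.85, beside 2.14 for the 9 members, and 3.52% of all genes tested in this class were called higher. In macrophage-like cells 6 of 11 were higher (median 1.17), beside 7.03% of all genes tested, and in dendritic cell-like cells 3 of 6, beside 6.96%. In neutrophil-like cells 2 of 4 were higher, beside 13.3% of all genes tested, and in T cell-like cells 0 of 12 (median −0.11), beside 3.28%. In cytotoxic T and NK cell-like cells 0 of 6 were higher (median −0.60), beside 3.52% of all genes tested. There 1 was lower, beside 2.79% of all genes tested, *Iigp1* at 104 and 51.6 CPM (−1.01, −1.81 to −0.28). *Iigp1* showed a different distribution from the 9 members: with anti-CD9 Ab it was at 475 and 647 CPM in microglia-like clusters 1 and 7, and at 14.01 and 7.78 CPM in neutrophil-like clusters 4 and 6. *Gbp6* was likewise at 24.8 and 6.22 CPM in clusters 4 and 6, and at 146 CPM in T cell-like cells. Reads of near-identical copies, such as *Gbp6* and *Gbp10* or *Tgtp1* and *Tgtp2*, cannot be told apart with certainty.

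Genes of the IFN-γ pathway were higher less uniformly than the members. Of 20 tested in microglia-like cells, 10 passed 2-fold (median 0.84), beside 3.52% of all genes tested. *Socs3*, a feedback inhibitor of cytokine signalling, was at 27.6 and 157 CPM (2.51) and *Cd274*, which encodes PD-L1, at 64.0 and 269 CPM (2.07). *Irf1*, an IRF transcription factor, was at 89.5 and 214 CPM (1.26), whereas the receptor chain *Ifngr1* was at 429 and 407 CPM (−0.07, −0.17 to 0.02) and *Irf8* at 518 and 451 CPM (−0.20). In macrophage-like cells 9 of 20 were higher, beside 7.03% of all genes tested, and in dendritic cell-like cells 7 of 20, beside 6.96%. In cytotoxic T and NK cell-like cells 3 of 17 were higher, beside 3.52% of all genes tested. In T cell-like cells 1 of 20 was, *Socs3*, beside 3.28%. In neutrophil-like cells 9 of 19 were higher and 1 lower, *Irf8*, beside 13.3% and 20.3% of all genes tested. *Irf1* in T cell-like cells was at 155 and 158 CPM (0.03).

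Genes chiefly induced by type I interferon were called most often in microglia-like and macrophage-like cells. In microglia-like cells 10 of 20 were higher (median 0.95), with *Oas2* at 4.50 and 31.7 CPM (2.82) and *Rsad2* at 18.2 and 96.5 CPM (2.40) at the top, and in macrophage-like cells 10 of 20 (median 1.02). Of all genes tested, 3.52% in microglia-like and 7.03% in macrophage-like cells were called higher. The counts were 6 of 18 in dendritic cell-like cells (median 0.44, beside 6.96% of all genes tested) and 4 of 19 in neutrophil-like cells (median 0.63, beside 13.3%). In cytotoxic T and NK cell-like cells 2 of 12 were higher (median −0.17, beside 3.52%). In T cell-like cells 1 of 18 was higher, *Ifitm3* at 61.2 and 305 CPM (2.32), beside 3.28% of all genes tested. There 2 were lower, beside 2.53% of all genes tested. These were *Ifi44* at 10.5 and 5.02 CPM (−1.07) and *Ifit3* at 78.3 and 38.7 CPM (−1.02). Of the genes for partners of the GTPases, such as inflammasome and ATG8 conjugation proteins, only *Casp4*, which encodes caspase-11, passed the limit in microglia-like cells (48.1 and 99.7 CPM, 1.05), out of 14. Of all genes tested there, 3.52% were called higher. In macrophage-like cells *Nlrp3* (27.9 and 111 CPM, 1.98) and *Casp4* (36.6 and 107 CPM, 1.54) passed the limit, beside 7.03% of all genes tested. In dendritic cell-like cells 2 of 14 passed it, beside 6.96% of all genes tested. In neutrophil-like cells 4 of 14 were higher and 3 lower, beside 13.3% and 20.3% of all genes tested. In T cell-like cells 0 of 13 were higher, beside 3.28%.

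Among the genes whose levels ran most like the sum of the members over 20 points, each a class in 1 library with at least 50 cells, were *Tnip1* (Spearman's rho 0.91), *Parp14* (0.91), *Ifit1* (0.88) and *Sertad1* (0.88), out of 8657 genes. The members' own values went from 0.68 (*Gbp4*) to 0.90 (*Gbp2*). Each member is itself a part of the sum, so these values cannot be set against those of other genes. The points share 2 libraries and differ in depth, so the values only describe these points.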

How the data were processed

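The deposited files held UMI counts per gene and cell barcode, which the authors made with Cell Ranger. The submitters' processing notes name version 8.0.0 and GRCm39, whereas the methods name GRCm38 and another version, and the files hold no coordinates, so promoter coordinates are those of RefSeq for GRCm38.p6. Cells with 200 to 7500 genes and at most 2% mitochondrial counts were kept, as in the methods. The 2 libraries were integrated by anchors and clustered with Seurat 5.3.0 in R 4.3.3 (2000 variable genes, 30 principal components, resolution 0.8), without 80 genes of the members and lists among the variable genes. Doublet scores came from scanpy 1.11.5, and the cells with the highest scores were marked at an assumed rate of 0.8% per 1000 barcodes. The rate fixed the marked shares in advance, at 9.79% and 12.1% of kept cells. Marked cells, called predicted doublets here, were not removed. A cluster took a class name where at least 40% and at least 3 of its type's markers were higher than in the other cells (log2 of at least 1), not more than 50% of its cells were predicted doublets and no other type led its top genes; these limits were set after the clusters were seen. Counts were summed per class and library, and sums are given with exact Poisson intervals, shares with Clopper-Pearson intervals and ratios with the conditional exact interval. A gene at 0 UMIs was set against a floor of 3 counts. UMIs remove copies made by amplification, and the intervals cover counting error only. No test was possible with 1 library per antibody. Ratio and interval code was tested on simulated data. Total counts were 38042608 and 40825201 UMIs with control Ab and anti-CD9 Ab. The members and all lists were chosen with earlier results of these data known. The named genes were all 9 members and, of each list, the highest and lowest ratios, and some others (*Irf1*, *Gbp6*, *Ifng*) were named after their values were seen. One gene of the lists is counted in them and is not reported here by name. Alternatives changed the integration, mitochondrial limit, doublets, components, resolution, genes in the clustering, classes, scaling, centring, weights, UMI minimum and thinning, and a neutrophil carry-over reckoning was added after seeing the data.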

Additional observations from a re-analysis of the deposited data

How the results depend on the processing

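Values were recomputed under other settings, where the class still held at least 50 cells in each library, and under the carry-over reckoning added after seeing the data, and 220 of 260 recomputed sums, medians, counts and shares stayed within the counting interval of the value reported, or within 1.5 times a count. No paired analysis was possible because each group held 1 library. Log2 ratios of the sum are given here as alternatives to the values reported. In microglia-like cells (1.99) the ratio was 1.87 without integration, 1.83 at the limit of 5% mitochondrial counts, 1.82 without predicted doublets, 1.87 at resolution 1.2, 1.76 with interferon genes in the clustering, 1.79 with the marker gate, 2.07 with cells weighted equally and 2.18 after the carry-over reckoning, which also gave a median of 2.48. That reckoning took the profile of anti-CD9 Ab neutrophil-like cells for both libraries, so its ratios cannot show how carry-over changed a difference. In macrophage-like cells (1.79) it was 1.60 at 5% mitochondrial counts, 1.90 without predicted doublets, 0.92 at resolution 1.2, 1.14 with the marker gate and 1.91 after centring on all genes, and the median was 1.02 at resolution 1.2 and 1.07 with the gate. The cause was not tested. In dendritic cell-like cells (1.70) it was 1.89 without predicted doublets and 1.91 with cells weighted equally, and in neutrophil-like cells (2.58) 2.09 with cells weighted equally. In T cell-like cells (0.08) it was 0.21 with interferon genes in the clustering, 0.15 with the marker gate, 0.18 after centring and 0.21 with cells weighted equally, and the number of members past 2-fold was 2 with interferon genes in the clustering and 1 with cells weighted equally. In cytotoxic T and NK cell-like cells 2 members passed at 20 principal components and 2 with interferon genes in the clustering. For these counts of members, the share of all genes called was not worked out under the same settings. In oligodendrocyte-like cells (2.58) the ratio was 3.10 without predicted doublets and 2.11 after the carry-over reckoning. Plasma cell-like cells (0.41) moved most, to 1.26 without integration, 1.83 at 5% mitochondrial counts, 1.15 at resolution 1.2, 1.56 with the marker gate and 0.75 with cells weighted equally, and the ratio reversed to −0.0266 after the carry-over reckoning. Differences in the share of thinned cells with a member UMI were 27.5 percentage points in microglia-like cells without integration and 22.1 at 500 UMIs, 17.5 and 16.8 in macrophage-like cells at resolution 1.2 and with the gate, and 38.3 in neutrophil-like cells at 500 UMIs. The marker gate gave no cytotoxic T and NK cell-like class, and at resolution 1.2 that class was split otherwise, so neither gives a value there. Nor is there a value for macrophage-like and neutrophil-like cells without integration, for dendritic cell-like and neutrophil-like cells with the marker gate, for cytotoxic T and NK cell-like cells at 5% mitochondrial counts, or for neutrophil-like cells in the carry-over reckoning, which is built on them. The control Ab values of neutrophil-like cells are limited by 65 UMIs.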

Other observations

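Unnamed clusters that were nearly confined to the anti-CD9 Ab library also carried the 9 members. Cluster 8, led by *Gdf15* and *Hilpda*, held 1 control Ab cell and 945 anti-CD9 Ab cells, in which the sum was 1753 CPM (1672 to 1838), with *Gbp2* at 471 CPM and *Ifi47* at 257 CPM. Cluster 5 (35 and 1264 cells) had sums of 233 CPM (166 to 319) and 1001 CPM (953 to 1051), with *Ifi47* at 11.9 and 144 CPM. Cluster 23, which carried markers of both neutrophils and T cells, had 2808 CPM (2591 to 3038) in 62 cells with anti-CD9 Ab, and 82.5% of its cells were predicted doublets (36.2% in cluster 5). Together the unnamed clusters held 12.1% of the member UMIs of the control Ab library and 12.3% of those of the anti-CD9 Ab library.

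In neutrophil-like cells, *Nlrp3*, the sensor of an inflammasome, was at 82.7 CPM (6 UMIs) in the control Ab library and 1068 CPM in the other (log2 ratio 3.69, 2.57 to 5.14), and *Casp4* at 96.4 and 615.5 CPM (2.67, 1.63 to 3.99). *Cxcl10*, a chemokine induced by interferon, was at 344 and 5960 CPM (4.11, 3.55 to 4.74). In the same cells *Irf1* was at 275.5 and 1133 CPM (2.04, 1.41 to 2.75). These are values of the whole class, which mixes clusters 4 (14 and 1373 cells) and 6 (51 and 1168 cells) in unlike parts in the 2 libraries. Within the clusters, the log2 ratio of *Irf1* was 1.46 (0.33 to 2.91) in cluster 4 and 2.01 (1.26 to 2.885) in cluster 6. The part of this mixing in the values was not tested.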
